A study of Rattus norvegicus with 4 samples.

Results

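The Sox transcription factor genes were examined by RNA-Seq in S16 cells, an immortalized Schwann cell line from the rat. The 10 genes were Sox10, Sox9 and Sox8 (group SoxE), Sox2 (SoxB), Sox4, Sox11 and Sox12 (SoxC), and Sox5, Sox6 and Sox13 (SoxD), picked by symbol out of the 30708 genes listed for each library, and all 10 were listed. There were 4 libraries from 2 populations of these cells. The first population, at passage 9, was the parental line of cells that the study later edited at an enhancer, and the second was an older population at passage 39. Neither population was edited, and each passage is represented by a single population of this line. Each population gave 2 libraries labelled as technical replicates, which the sample titles number 1 and 2. The values are RPKM, which sets the reads of a gene against its length in kilobases and against the library total in units of 1000000. Where values of a population are paired below, technical replicate 1 comes first. Because RPKM is per length, levels can be set side by side between genes. Such ratios may depend on the library, because the difference between technical replicate numbers moved with gene length, as given below.

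SOX proteins bind DNA through a high mobility group (HMG) domain shared with SRY, and are sorted into lettered groups by the similarity of that domain. SOX10, a SoxE protein, is required for Schwann cells to form from the neural crest and to keep their identity, and it activates genes of myelin. SOX8 and SOX9 have a similar structure, with SOX9 best known in cartilage and in the early neural crest. The SoxD proteins carry no activation or repression domain of their own, pair through a coiled coil, and work with SoxE proteins, in cartilage as helpers of SOX9 and in oligodendrocyte precursors mostly against SOX10. SoxC proteins are activators in progenitor cells, and SOX2 is known in Schwann cells as a factor of the immature state that holds back myelination.

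The 4 libraries held between 34.2 and 41.4 M reads (M, 1000000), as recovered from the RPKM values. The libraries resembled each other by technical replicate number rather than by population. Over the 11025 genes whose mean reached 1 RPKM, the SD of the log2 difference was 0.334 and 0.339 between the libraries of the same population, and 0.0796 and 0.0823 between libraries that carried the same number in the 2 populations. The labels do not say that the number marks a batch, so a batch of libraries and crossed sample labels cannot be told apart, and the members are given by library. As both numbers enter each population mean, the SD over populations leaves out the spread between numbers. Of 8 Schwann cell markers, 7 reached a mean of 1 RPKM, the exception being Cdh19 at 0.938 RPKM. None of 6 neuronal markers did, and Elavl4, Syt1 and Stmn2 were listed at 0. None of the 5 chondrocyte or 4 endothelial markers reached a mean of 1 RPKM either. Of 6 fibroblast markers 3 did, led by Col1a1 at 3588 RPKM, with Col1a2 (0.339 RPKM), Dcn and Lum under 1 RPKM. Pmel (8.72 RPKM) was the sole marker of 6 for melanocytes to reach it, and 3 of 4 oligodendrocyte markers did so, Myrf at 50.8, Mog at 7.98 and Olig2 at 1.04 RPKM. A value of 0 is given here only as listed at 0, because 2 of 77 genes of ribosomal proteins were also at 0 in every library. Fewer cells of a type and less RNA per cell cannot be told apart in these bulk libraries.

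Sox10 was the most abundant Sox gene by a wide margin. Its level was 174.5 and 183.0 RPKM in the passage 9 libraries and 170.7 and 176.1 RPKM in the passage 39 libraries. The mean was 176 ± 3.75 RPKM (SD, n = 2 populations), which placed Sox10 at rank 234 of the 30708 genes. Between 17710 and 21916 reads stood behind each value, so that the 95% counting interval in the first library ran from 172 to 177 RPKM. The level of Sox10 was even, with a coefficient of variation of 2.90% over the 4 libraries. Sox2 and Sox4, both at 3.70%, and Sox6 at 4.83% were nearly as even. Sox13 was at 7.38%, Sox12 at 8.57%, Sox9 at 15.3%, Sox5 at 27.4% and Sox8 at 43.4%. In level its neighbors were Laptm4a (177.4 RPKM) and Eif4a2 (177.1 RPKM) above it and Ap2m1 (175.9 RPKM) and Pebp1 (175.6 RPKM) below it. By the shape of its log2(RPKM + 1) values over the 4 libraries, the nearest of the 11025 genes were Ei24, Hadh and Rfx1, at Euclidean distances of 0.00374, 0.00489 and 0.00724, a likeness over only 4 points.

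The other SoxE genes had means under 1 RPKM. Sox8 was at 0.581 and 1.35 RPKM in the passage 9 libraries and 0.612 and 1.27 RPKM in the passage 39 libraries, with a mean of 0.953 ± 0.0190 RPKM (SD, n = 2 populations). It rested on 78, 154, 68 and 169 reads in the same order, and both libraries numbered 2 lay above both numbered 1. Their counting intervals did not overlap either, with 0.459 to 0.725 and 0.475 to 0.776 RPKM for the libraries numbered 1, and 1.15 to 1.58 and 1.08 to 1.47 RPKM for those numbered 2. Sox9 was at 0.277 and 0.368 RPKM in the passage 9 libraries and 0.271 and 0.285 RPKM in the passage 39 libraries, from 38 to 53 reads, and the counting intervals of its 4 libraries all overlapped. Sox10 thus held 99.3% ± 0.0116 (SD, n = 2 populations) of the summed RPKM of the SoxE group, and between 99.1% and 99.5% in single libraries. Sox8 held from 0.331% to 0.733% and Sox9 from 0.158% to 0.199%.

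**Figure D1:**
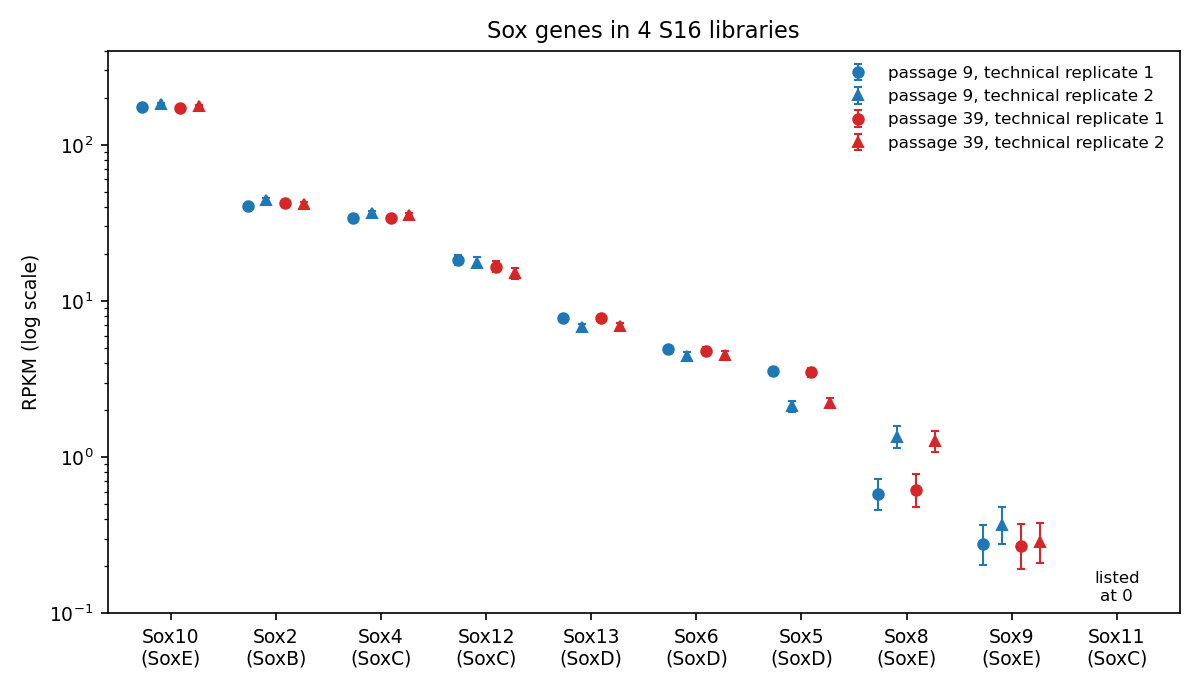
RPKM (log axis) of the 10 Sox genes in each of the 4 S16 libraries, ordered by mean, with the group of each gene in parentheses. Color gives the passage, shape the technical replicate number, and bars the 95% counting interval. Sox10 sits between 171 and 183 RPKM in every library, Sox5 and Sox8 split by shape and not by color, and Sox11 is listed at 0.

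Sox2, the SoxB gene, was the second most abundant Sox gene in these cells. It was at 40.4 and 44.2 RPKM in the 2 libraries of passage 9 and at 42.1 and 41.8 RPKM in those of passage 39, from 3350 to 3991 reads. The mean was 42.1 ± 0.225 RPKM (SD, n = 2 populations), at rank 1684. The highest and the lowest value were thus both at passage 9, and the 2 libraries of passage 39 lay between them. In the rat assembly GRCr8, a long noncoding RNA gene, LOC103691527, overlaps Sox2. The counting did not use strand, so reads of such an RNA and of Sox2 cannot be told apart.

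Of the SoxC genes, Sox4 was at 34.2 and 36.8 RPKM in the passage 9 libraries and 34.1 and 35.6 RPKM in the passage 39 libraries, with a mean of 35.1 ± 0.459 RPKM (SD, n = 2 populations) and rank 2044. Both libraries numbered 2 were above both numbered 1, by a narrow margin. Sox12 was at 18.4 and 17.6 RPKM in the passage 9 libraries and 16.6 and 15.01 RPKM in the passage 39 libraries, with a mean of 16.9 ± 1.54 RPKM and rank 4052. It was the only member of the 10 whose libraries did not overlap between the passages, a separation that 6.21% of the 11025 genes showed. Sox11, which is known with Sox4 for its role in neuronal progenitors and sympathetic neurons, was listed at 0 in all 4 libraries. Sox4 held 67.6% ± 1.73 (SD, n = 2 populations) of the summed RPKM of the group and Sox12 the rest. The share of Sox4 was 65.0% and 67.6% at passage 9 and 67.2% and 70.3% at passage 39.

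The SoxD genes gave the lowest summed level of the groups. Sox13 was at 7.82 and 6.80 RPKM in the passage 9 libraries and 7.79 and 6.95 RPKM in the passage 39 libraries (mean 7.34 ± 0.0457 RPKM). Sox6 was at 4.91 and 4.42 RPKM in the passage 9 libraries and 4.77 and 4.52 RPKM in the passage 39 libraries (mean 4.66 ± 0.0134 RPKM). Sox5 was at 3.53 and 2.12 RPKM in the passage 9 libraries and 3.49 and 2.21 RPKM in the passage 39 libraries (mean 2.84 ± 0.0149 RPKM). All SoxD genes were higher in both libraries numbered 1 than in both numbered 2, while their passage means were almost equal. Such a separation by number, in either direction, was shown by 87.7% of the 11025 genes tested. The split was widest for Sox5, whose counting intervals of 3.33 to 3.74 and 3.27 to 3.72 RPKM in the libraries numbered 1 lay above those of 1.95 to 2.30 and 2.05 to 2.37 RPKM in the libraries numbered 2. Sox5 and Sox6 each overlap other genes in GRCr8, none of them listed in these data.

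Ordered by mean RPKM, the genes ran Sox10, Sox2, Sox4, Sox12, Sox13, Sox6, Sox5, Sox8, Sox9 and Sox11, and the ranges of the 4 libraries overlapped for no neighbors in this order. The widest step between genes above 1 RPKM was from Sox10 to Sox2, with a ratio of 4.18. The narrowest was from Sox2 to Sox4, with a ratio of 1.20, which ran from 1.18 to 1.24 in single libraries. The ratio of Sox6 to Sox5 moved from 1.37 to 2.08 between libraries, and that of Sox5 to Sox8 from 1.57 to 6.08.

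By group, the summed RPKM was 177 ± 3.80 for SoxE, 52.0 ± 2.00 for SoxC, 42.1 ± 0.225 for SoxB and 14.8 ± 0.0472 for SoxD (SD, n = 2 populations). SoxE made up 61.9% ± 0.0329 of the summed RPKM of the 10 genes, SoxC 18.2% ± 0.318, SoxB 14.7% ± 0.234 and SoxD 5.19% ± 0.118. These shares do not depend on how the libraries are scaled. The SoxE share was 61.6% and 62.3% for the passage 9 libraries and 61.2% and 62.6% for the passage 39 libraries. The SoxD share was 5.72% in both libraries numbered 1, and 4.50% and 4.82% in the libraries numbered 2 of passages 9 and 39. Within SoxD the makeup moved with the number as well: Sox5 held 21.7% in both libraries numbered 1 and 15.9% and 16.1% in those numbered 2. Sox6 and Sox13 each held a larger share in the libraries numbered 2, with 33.1% in both for Sox6 and 51.0% and 50.8% for Sox13.

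**Figure D2:**
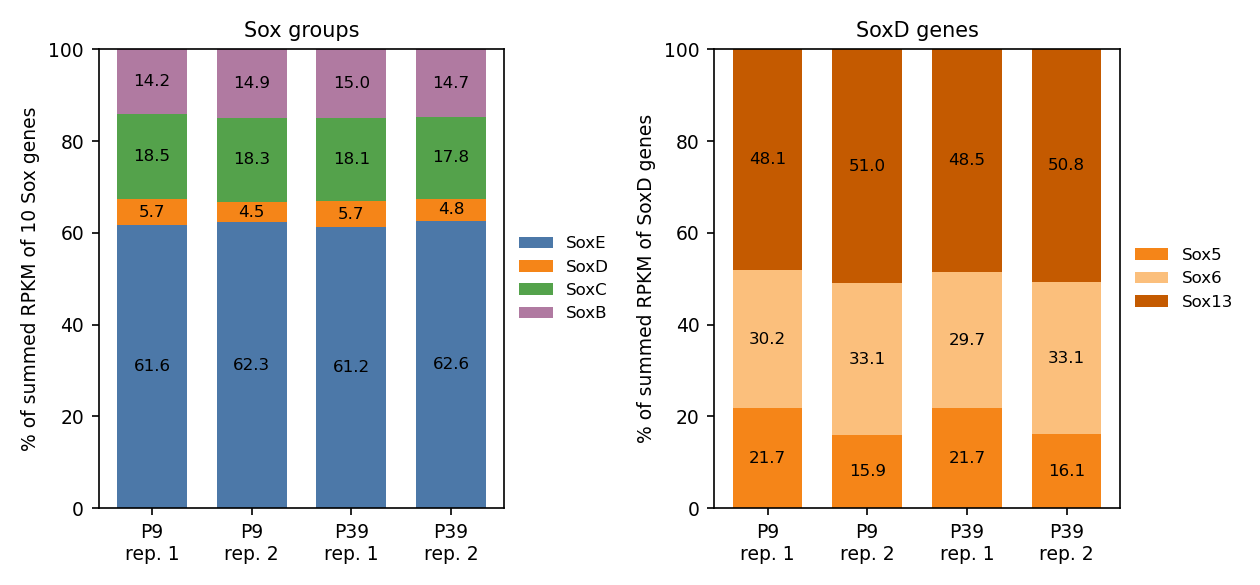
Stacked bars of the percent of summed RPKM in the 4 libraries (P, passage; rep., technical replicate number), for the groups among the 10 Sox genes (left) and for the genes within SoxD (right). SoxE holds 61.2% to 62.6% in every library, and Sox5 is 21.7% of SoxD in both libraries numbered 1 and 15.9% and 16.1% in those numbered 2.

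The older population was set against the parental one to see how far the Sox genes differed with passage. With 1 population per passage there is no replicate check, and no p-value is given. As crossed sample labels cannot be told apart from a batch, each passage mean may mix the 2 populations. None of the 7 members tested differed 2-fold between the passage means on the log2(RPKM + 1) scale, against 1 of all 11025 genes tested (0.00907%). The members under 1 RPKM bear little on this, as Sox11 was listed at 0, and Sox8 and Sox9 were too low to fall 2-fold on this scale. For the 7 members whose mean reached 1 RPKM, the difference of passage 39 minus passage 9 ran from -0.18 to 0.01, with a median of -0.01, beside a median of -0.0021 over all genes tested. The lowest was Sox12 at -0.18, with -0.14 between the libraries numbered 1 and -0.22 between those numbered 2. Without technical replicate 2 of passage 39 it was -0.11. Both of its libraries at passage 39 lay below both at passage 9, a separation that 685 of the 11025 genes showed in either direction (6.21%). The intervals from counting error, 17.1 to 19.7 and 16.3 to 19.0 RPKM at passage 9 and 15.3 to 18.01 and 13.9 to 16.2 RPKM at passage 39, overlapped in part. Sox10 differed by -0.04, with -0.03 and -0.05 within the libraries numbered 1 and 2, and its libraries overlapped between passages. Sox5, Sox6 and Sox13 differed by 0.0079, -0.0048 and 0.01. Sox8, under 1 RPKM, differed by -0.02.

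The comparison of technical replicate 2 with technical replicate 1 was made within both populations, with limma on log2(RPKM + 1) and the population as a block. Its p-values measure only the spread between these libraries, which may be technical, and the number may stand for something other than the labels say. Of the 7 members tested, 5 had a Benjamini-Hochberg adjusted p under 0.05, beside 74.1% of the 11025 genes. In 5 members both libraries numbered 2 lay on the same side of both numbered 1, as did those of 87.7% of all genes. Neither count is above this background. By direction, 2 members were called higher in the libraries numbered 2 (49.7% of all genes) and 3 lower (24.4%). This split rests on the scaling, since 0 were called higher and 5 lower with a common sum and with the median ratio of the libraries, and 1 higher and 4 lower relative to genes of similar length. No tested member reached 2-fold (1.1% of all genes), and Sox5 alone reached 0.5 in size on the log2 scale (9.75%). The median of all genes tested was itself 0.10, and moved to -0.03 when every library was scaled to a common sum, so the members are also given relative to it.

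Sox5 had the largest difference of the members tested. It was -0.51 in libraries numbered 2 minus those numbered 1 (SE 0.06, adjusted p = 6.96e-05, limma), with -0.54 at passage 9 and -0.49 at passage 39, and -0.62 relative to the median of all genes. Its mean RPKM in the libraries numbered 1 was 1.62-fold that in the libraries numbered 2. Among all 11025 genes it was at rank 473 of those lower in the libraries numbered 2. Sox13 differed by -0.16 (SE 0.04, adjusted p = 0.00795, limma), or -0.27 relative to the median. Sox6 differed by -0.09 and did not pass the test (SE 0.05, adjusted p = 0.115, limma), but it did with a common sum (-0.24, adjusted p = 0.00615, limma), with the median ratio (-0.19, adjusted p = 0.0107, limma) and in a limma voom fit to the recovered reads (-0.11, adjusted p = 0.0113). The SoxD genes thus lay on the same side in both populations, as the plot of the differences by population shows. A separation of the libraries by number was the usual state, shown by 87.7% of all genes.

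The SoxD genes also have the longest gene models of the members, with recovered lengths of 7294 to 7920 bp, longer than those of 93.2% to 94.8% of the genes tested. Over all genes the difference moved with length. In 20 bins of length its median went from 0.28 for the shortest genes to -0.22 for the longest, and was -0.11 for the 551 genes of 6440 to 7976 bp that include the SoxD genes. Relative to genes of similar length, Sox5 differed by -0.40 (SE 0.06, adjusted p = 0.000488, limma). Sox13 then differed by -0.05 (adjusted p = 0.306, limma) and Sox6 by 0.02 (adjusted p = 0.767, limma). Sox5 was thus the sole SoxD gene past the threshold against genes of its own length. The part of length in these differences was not tested further.

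Among the remaining tested genes, Sox12, with a short model of 1020 bp, was at -0.10 (SE 0.03, adjusted p = 0.0312, limma) and at -0.20 relative to the median of all genes. Relative to genes of similar length, which had a median of 0.22, it was at -0.32 (adjusted p = 0.000103, limma). The fits with a library left out had no block for the population. They thus also took in part of the passage difference, which was -0.18 for Sox12. Sox12 was at -0.03 and -0.21 without technical replicates 1 and 2 of passage 9. It was at -0.17 and 0.01 without those of passage 39. Sox4 was at 0.08 (SE 0.03, adjusted p = 0.0201, limma), but at -0.06 with a common sum and -0.03 with the median ratio of the libraries, and at -0.02 relative to the median of all genes. With each library left out in turn, Sox4 was at 0.06 to 0.11.

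Sox10 was at 0.06 (SE 0.02, adjusted p = 0.0255, limma), with 0.07 at passage 9 and 0.04 at passage 39, but was called lower with a common sum (-0.09, adjusted p = 0.00351, limma) and with the median ratio (-0.06, adjusted p = 0.0250, limma), and was at -0.05 relative to the median of all genes. Its direction therefore rests on the scaling, and the change in RPKM was 1.04-fold. With each library left out in turn, in fits without a block for the population, Sox10 was at 0.03 to 0.08. Sox2 was at 0.06 (SE 0.03, adjusted p = 0.153, limma) and turned to -0.09 and -0.05 with those scalings. Relative to genes of similar length it passed the test as lower (-0.10, adjusted p = 0.0393, limma). With each library left out in turn, also without a block, Sox2 was at 0.02 to 0.10.

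Sox8, under the minimum of 1 RPKM, was not in the main test. Its mean RPKM was 2.20-fold higher in the libraries numbered 2, with 0.57 at passage 9 and 0.49 at passage 39 on the log2(RPKM + 1) scale, which understates the change of a gene so low. When all 20333 genes above 0 were tested with no minimum, Sox8 passed (0.53, adjusted p = 0.000975, limma, beside 43.4% of genes called). In a limma voom fit to the recovered reads it was at 1.13 on the log2 scale of the reads (adjusted p = 2.81e-13, with 69.7% of 13544 genes called). Sox9 was at 0.10 and 0.02 in the populations of passage 9 and passage 39.

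**Figure D3:**
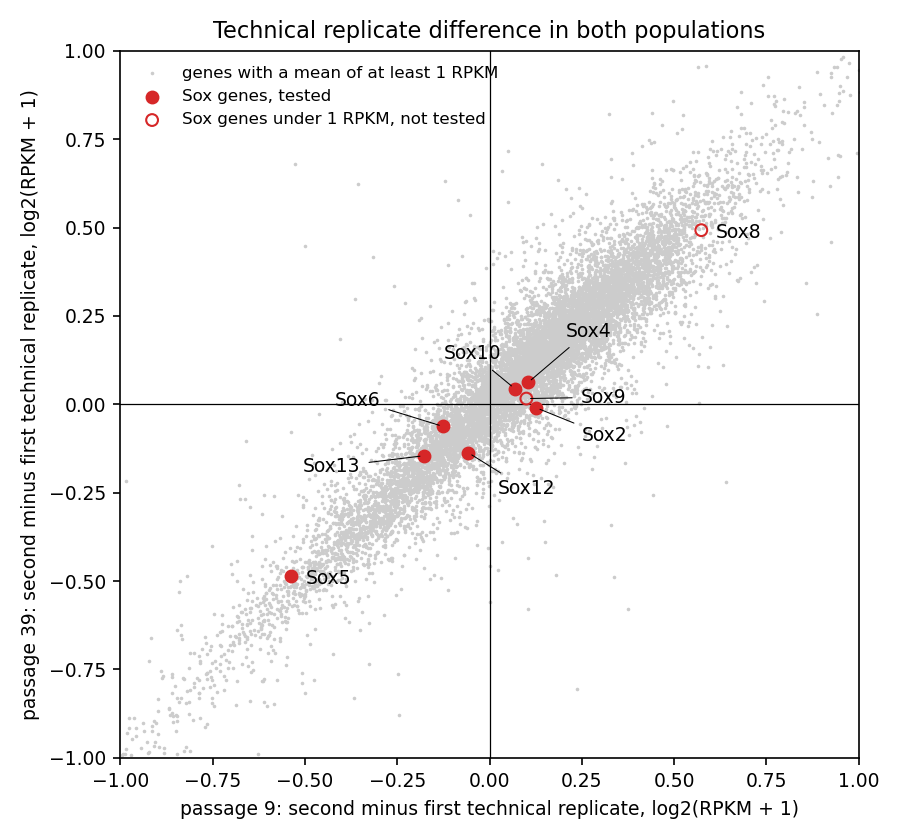
Difference of technical replicate 2 minus technical replicate 1 on the log2(RPKM + 1) scale, at passage 9 (x axis) and passage 39 (y axis), for genes whose mean reached 1 RPKM (grey, 146 outside the axes), the 7 tested Sox genes (filled) and Sox8 and Sox9 (open). Sox5 lies at -0.54 and -0.49 and Sox8 at 0.57 and 0.49, while Sox10 lies close to 0 in both populations.

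Of the 9 remaining Sox genes looked up, 7 were listed, with no row for Sox1 and Sox3. Sox18, a SoxF gene of endothelial cells, was the sole member of these to reach 1 RPKM. It was at 2.30 and 3.03 RPKM in the passage 9 libraries and 1.91 and 2.89 RPKM in the passage 39 libraries, and was thus higher in the libraries numbered 2 (0.35, SE 0.06, adjusted p = 0.00101, limma), though not relative to genes of similar length (0.16, adjusted p = 0.0578, limma). Of the 4 endothelial markers, Cdh5 and Kdr were listed at 0 and Pecam1 was at 0.0227 RPKM at most. Tek was at 0.361 and 0.418 RPKM in the passage 9 libraries and 0.307 and 0.411 RPKM in the passage 39 libraries. Among the remaining Sox genes, Sox14 and Sox30 were listed at 0, and Sox7, Sox15, Sox17 and Sox21 were under 1 RPKM in every library.

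The technical replicate numbers were also compared for genes known to be bound or activated by SOX10. Of 16 such genes 11 were tested, and 2 were called higher and 8 lower in the libraries numbered 2, beside 49.7% and 24.4% of all genes. Their median difference was -0.43 beside 0.10 for all genes, and between -0.59 and -0.48 with other scalings or relative to genes of similar length. These genes were picked with earlier results of the same libraries known. Between the passages the median of the same 11 genes was 0.0099, and they ranged from -0.06 to 0.08.

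Pmp22, a protein of compact myelin, was at 1225 and 1293 RPKM in the passage 9 libraries and 1216 and 1287 RPKM in the passage 39 libraries. Its difference of 0.08 (adjusted p = 0.00179, limma) turned to -0.07 with a common sum and to -0.03 with the median ratio. Cnp, an enzyme of myelinating glia, was at 280 and 210 RPKM in the passage 9 libraries and 279 and 208 RPKM in the passage 39 libraries (-0.42, adjusted p = 4.91e-07, limma). Erbb3, the receptor through which neuregulin acts on Schwann cells, was at 103.8 and 74.6 RPKM in the passage 9 libraries and 102.2 and 76.2 RPKM in the passage 39 libraries (-0.44, adjusted p = 1.08e-06, limma).

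The largest differences of these 11 genes were those of Ednrb, S100b and Mbp. Ednrb, the endothelin receptor of the early glial and melanocyte lineage, was at 21.2 and 4.27 RPKM in the passage 9 libraries and 21.7 and 4.33 RPKM in the passage 39 libraries (-2.08, adjusted p = 1.03e-08, limma). S100b, a calcium-binding protein used as a Schwann cell marker, was at 85.7 and 31.8 RPKM in the passage 9 libraries and 86.6 and 32.8 RPKM in the passage 39 libraries (-1.39, adjusted p = 7.81e-09, limma). Mbp, the myelin basic protein, was at 50.5 and 29.5 RPKM in the passage 9 libraries and 50.9 and 29.7 RPKM in the passage 39 libraries (-0.76, adjusted p = 1.42e-07, limma). Egr2, the factor that works with SOX10 on myelin genes, went the other way. It was at 5.90 and 10.5 RPKM in the passage 9 libraries and 6.21 and 10.9998 RPKM in the passage 39 libraries (0.73, adjusted p = 1.54e-06, limma). It was named after its values were seen, as was Mitf, a melanocyte factor and the tested target that was not called (0.04, adjusted p = 0.530, limma). Gjb1, Pou3f1, Dct, Ret and Nfasc were under 1 RPKM.

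**Figure D4:**
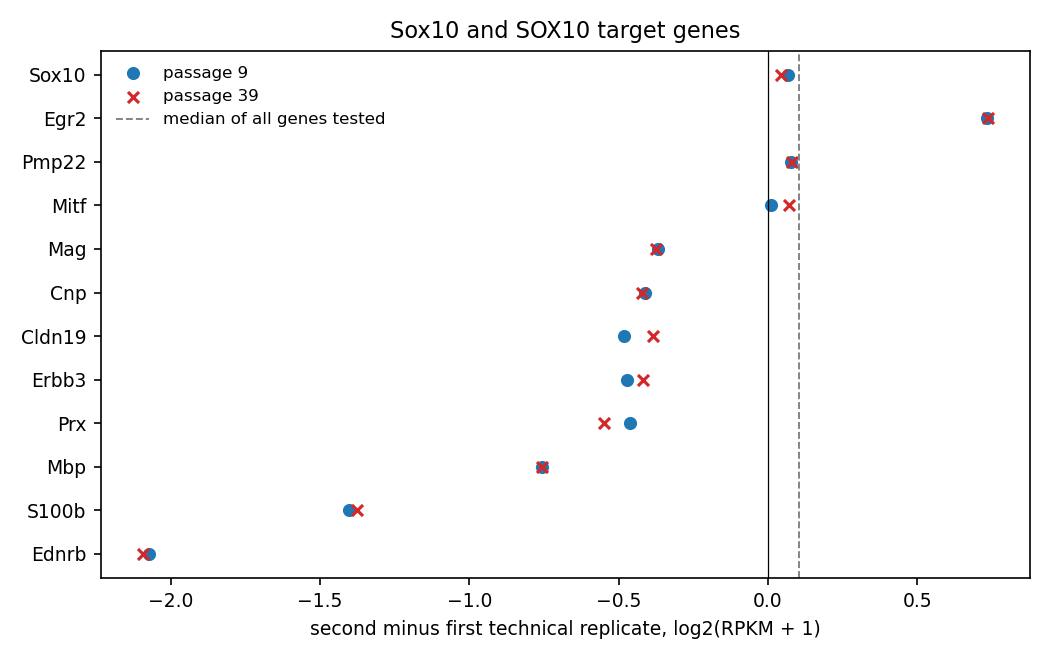
Difference of technical replicate 2 minus technical replicate 1 on the log2(RPKM + 1) scale for Sox10 and the 11 tested SOX10 target genes, at passage 9 (circles) and passage 39 (crosses), with the median of all genes tested as a dashed line. Sox10 lies at 0.07 and 0.04, Egr2 above it, and 8 targets from Mag to Ednrb lie below 0 in both populations.

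Values of other markers moved with the same numbers, and their part in these differences was not tested. The summed RPKM of the 8 Schwann cell markers, Sox10 included, averaged 1998 in the libraries numbered 1 and 1930 in those numbered 2, within a range of 1919 to 2004. Pmp22 made up most of this sum, and other markers in it differed more. Mal, a proteolipid of myelinating cells, was at 43.8 and 18.7 RPKM in the passage 9 libraries and 44.4 and 18.1 RPKM in the passage 39 libraries, and Cdh19 was at 1.77 and 0.133 RPKM and at 1.67 and 0.175 RPKM. S100b, Erbb3, Mag and Ngfr were also lower in both libraries numbered 2. Ngfr was at 292 and 279 RPKM in the passage 9 libraries and 292 and 269 RPKM in the passage 39 libraries. The summed RPKM of the 6 fibroblast markers averaged 3371 and 3847, within a range of 3363 to 3900, nearly all of it Col1a1. The 4 oligodendrocyte markers averaged 71.3 and 48.3, within a range of 48.2 to 71.7, with Opalin listed at 0. The 5 chondrocyte markers averaged 0.521 and 1.01, within a range of 0.487 to 1.08, and the 6 melanocyte markers 9.13 and 8.55, with Tyr and Slc45a2 listed at 0. The 5 muscle markers summed to 0.526 and 2.35 RPKM, with Myog listed at 0 and none with a mean of 1 RPKM. Myod1 was at 0.261 and 1.36 RPKM in the passage 9 libraries and 0.165 and 1.56 RPKM in the passage 39 libraries. The 6 neuronal markers summed to 0.0623 RPKM at most.

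Of 18 partners and regulators of SOX10, 16 were tested. In the libraries numbered 2, 6 were called higher, 4 lower and 6 not, beside 49.7% and 24.4% of all genes called higher and lower, with a median of 0.03. With a common sum 3 were called higher and 9 lower (median -0.12), with the median ratio 3 and 8 (median -0.08), and relative to genes of similar length 5 and 8 (median -0.10). The largest difference was that of Zeb2, a repressor that Schwann cells need to mature, at 58.2 and 41.7 RPKM in the passage 9 libraries and 58.5 and 42.7 RPKM in the passage 39 libraries (-0.46, adjusted p = 1.17e-06, limma). Notch1, a receptor of immature Schwann cells, was at 32.2 and 23.5 RPKM in the passage 9 libraries and 32.3 and 22.9 RPKM in the passage 39 libraries (-0.46, adjusted p = 2.60e-06, limma). Nab2, a cofactor of EGR2, was at 19.1 and 25.8 RPKM in the passage 9 libraries and 19.5 and 25.6 RPKM in the passage 39 libraries (0.39, adjusted p = 7.67e-06, limma). Olig1 was listed at 0.

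Among 9 cartilage genes that SOX9, SOX5 and SOX6 drive, Acan, Col2a1, Col9a1 and Matn1 were at most at 0.0285 RPKM. Those with a mean of 1 RPKM or more were Matn3, Col9a2 and Hapln1. Matn3, a cartilage matrix protein, was the highest, at 10.5 and 12.1 RPKM in the passage 9 libraries and 9.83 and 13.2 RPKM in the passage 39 libraries. Col9a2 was at 2.76 and 3.56 RPKM in the passage 9 libraries and 2.83 and 3.20 RPKM in the passage 39 libraries, and Hapln1 was at 2.02 and 3.00 RPKM and at 1.91 and 3.16 RPKM. All 3 were called higher in the libraries numbered 2, by 0.29, 0.21 and 0.46, beside 49.7% of all genes. Col9a2 did not pass with a common sum (0.11, adjusted p = 0.196, limma), the median ratio (0.12, adjusted p = 0.110, limma) or relative to genes of similar length (0.10, adjusted p = 0.177, limma). Matn3 did not pass relative to genes of similar length either (0.13, adjusted p = 0.0595, limma), where Hapln1 alone was called.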

How the data were processed

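Total RNA of S16 cells was extracted with TRIzol, and poly(A) TruSeq libraries were read as 50-bp single ends on a HiSeq2000. Per the study's methods, the libraries were pooled and run across sequencing lanes, reads were checked with FastQC and aligned to the rat rn5 genome with STAR, only uniquely mapped reads were kept, and HTSeq counted them per gene without regard to strand. Tool versions are not given in the sources used here. The authors deposited RPKM values, 1 per gene symbol and library. How gene lengths and totals were set is not stated, and RefSeq is named with the deposited values but Ensembl in the methods.

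Library totals, gene model lengths and whole reads were recovered from ratios of the RPKM values. Whole reads came out for 20332 of 20333 genes above 0 (99.9951%, within 1e-06 reads), and a factor common to all libraries could remain hidden. The shortest recovered length among the genes tested was 5 bp, under the read length of 50 bp. Some recovered lengths and reads may therefore be too small, and the share of whole reads does not show that they are right. The study's methods give a smaller number of reads per cell line, and the totals behind RPKM are not stated, so the intervals hold only if the recovered totals are right. In the libraries, 3 reads of a gene of 1 kb correspond to 0.0725 to 0.0876 RPKM. The 95% Clopper-Pearson intervals take in counting error alone, because molecules were not tagged and copies of 1 molecule can be counted repeatedly.

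RPKM values were averaged within a population, and the SD was taken over the 2 populations. Differences are on the log2(RPKM + 1) scale, which understates changes of low genes, for the 11025 genes whose mean reached 1 RPKM. Technical replicate numbers were compared with limma 3.58.1 (trended eBayes, two-sided, Benjamini-Hochberg adjusted p under 0.05, population as block) in R 4.3.3. The passages, with 1 population each, were compared by size without a test. Other steps used Python 3.11.15 with scipy 1.17.1, numpy 2.4.6 and pandas 2.3.3, and the fits were tested on simulated data. Groups were taken from the passage given for each sample, and technical replicate numbers from the titles.

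Besides the 10 members, the text names other Sox and cartilage genes that reached 1 RPKM, the 3 highest SOX10 targets, the 3 targets and 3 partners with the largest differences, and the genes nearest to Sox10. Of the genes this rule and the lists cover, 2 are not reported here and were left out of the lists. Members and lists were chosen with earlier results of these data known. Overlapping genes were read from RefSeq annotation of GRCr8, another build than that of the files, so no coordinates are given. The alternatives were other scalings, a pseudocount of 0.1 RPKM, no minimum or one of 5 RPKM, no block or trend, values relative to genes of similar length in 20 bins, and each library left out. The fits with a library left out had no block for the population. A limma voom fit to the recovered reads was added after seeing the data.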

Additional observations from a re-analysis of the deposited data

Results flagged for a closer look

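The difference between the technical replicate numbers had opposite signs in the 2 populations for Sox2. Technical replicate 2 minus technical replicate 1 was 0.13 at passage 9 and -0.0098 at passage 39 on the log2(RPKM + 1) scale. Each value rests on 1 library against 1, and the difference between the populations was not tested. Groups of 2 libraries were too small to test for outlying samples.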

How the results depend on the processing

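The SoxE share of the 10 members was 61.9%, 61.4% in the libraries numbered 1 and 62.4% in those numbered 2, and 61.6% to 62.3% with each library left out. The Sox10 share of SoxE was 99.3%, 99.5% and 99.1% by number, and 99.2% to 99.4% with each library left out. Between passages, 1 gene differed 2-fold, 0 with a minimum of 5 RPKM, and 9 to 27 with a library left out (25 and 9 without technical replicates 1 and 2 of passage 9, 27 and 13 without those of passage 39), when libraries of unlike number are compared. With the replicate number as a block this count was 1. Same-numbered libraries deviated together from the passage means (correlation 0.943 across 11025 genes), but the labels do not say that the number pairs them. No tested member differed 2-fold between passages in any of these settings. Between numbers, 8170 genes were called, and 6527 to 9442 in other settings. Of 5 members called, 3 remained without the population block (Sox4, Sox5 and Sox13) and 2 without a trend (Sox5 and Sox13). Fits with a library left out had no block for the population, so their differences also take in part of the passage difference. Sox5 was called in every setting with all 4 libraries that tested it, at -0.75 to -0.40. These values are not on a single scale. The common sum, which gave -0.75, raised the Sox5 mean from 2.84 to 8.65 while the pseudocount stayed at 1. The share of calls that were higher was 67.1%, and 43.8% with a common sum, 49.8% with the median ratio and 48.8% relative to genes of similar length. Directions reversed with a common sum for Sox10 (-0.0902), Sox2 (-0.0867) and Sox4 (-0.0611), with the median ratio for Sox10 (-0.0570), Sox2 (-0.0531) and Sox4 (-0.0277), relative to genes of similar length for Sox10 (-0.0568), Sox2 (-0.0959) and Sox6 (0.0173), and without technical replicate 2 of passage 39 for Sox12 (0.0108, in a range of -0.206 to 0.0108 with each library left out). The median of all genes was 0.10, -0.03 with a common sum and 0.0054 with the median ratio. The summed RPKM of all listed genes was 315847 and 351061 in the passage 9 libraries and 315995 and 348537 in the passage 39 libraries. The cause of the reversals was not tested. Depth limits Sox9 and Sox8, at 38 to 169 reads.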
